A study of Drosophila melanogaster with 3 samples.

Results

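Peaks of the forkhead protein fkh were described at 7 genes that encode regulators of the salivary gland, sage, CrebA, hkb, eyg, toe, rib and sens, out of 13945 protein-coding genes on the main chromosome arms of Drosophila melanogaster. The genes were chosen by name, as factors that act with or under fkh in the gland, and not by any value measured here. Chromatin immunoprecipitation followed by sequencing (ChIP-seq) had been done on whole prepupae, males and females together, of 1 transgenic line whose fkh protein ends in green fluorescent protein (GFP), and an antibody to GFP was used. The 3 samples are biological replicates of this 1 group, with no untreated or mutant group. All 3 carry an insertion aimed at fkh, of which the sources used here give neither extent nor promoter, and the labels give an age of 24 days, which is longer than the time to this stage. The authors' optimal list, cut by a step that measures agreement between replicates, holds 9531 peaks. A pooled list of 30000 regions called on the 3 replicates together also includes background. The optimal list equals the 9531 strongest regions of the pooled list, so a single peak in it need not recur in every replicate. Each peak has a summit, its highest position, and a signal, the authors' score, which runs from 160.0 to 6080.8 in the optimal list with a median of 294.1. The lists carry no read counts, so the depth behind each value is unknown, and the strongest peak of the list lies at fkh itself.

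The larval salivary gland makes the glue that fixes the pupa to a surface and breaks down after the prepupal stage. fkh is needed to form its secretory cells in the embryo and to run their glue genes in the larva. sage encodes a basic helix-loop-helix protein found in the gland, which works with fkh to switch on gland products. CrebA is a leucine zipper factor that raises the genes of the secretory pathway. The zinc finger gene hkb and the BTB domain gene rib take part in shaping the gland tube, eyg and its close relative toe encode Pax family proteins, of which eyg acts in the precursors of the salivary duct, and the zinc finger gene sens helps embryonic gland cells survive. The chromatin came from whole animals, so none of the peaks below can be placed in the gland, and the number of nuclei in which a site is bound cannot be told apart from how fully it is bound in each.

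The optimal list held 23 summits in the bodies or within 10 kb of 6 of the 7 genes, and no summit was shared by 2 of them. CrebA had 9, rib 6, eyg and sens 3 each, toe and hkb 1 each, and sage none. Of all protein-coding genes, 69.5% had at least 1 optimal summit in the same window, so the count of 6 of 7 is close to the background. The median over the 7 genes was 3 summits, against 2 over all protein-coding genes, in windows with median lengths of 25.5 kb and 22.2 kb. The median signal of the strongest summit was 633.8 over the 7 genes and 381.4 over all genes, with genes that had none counted as 0. The 23 summits themselves were of middling strength, with a median signal of 262.6 and 11 of them above the list's median of 294.1. With 1 group of samples and a list of 7 genes, no test was made of these differences.

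**Figure D1:**
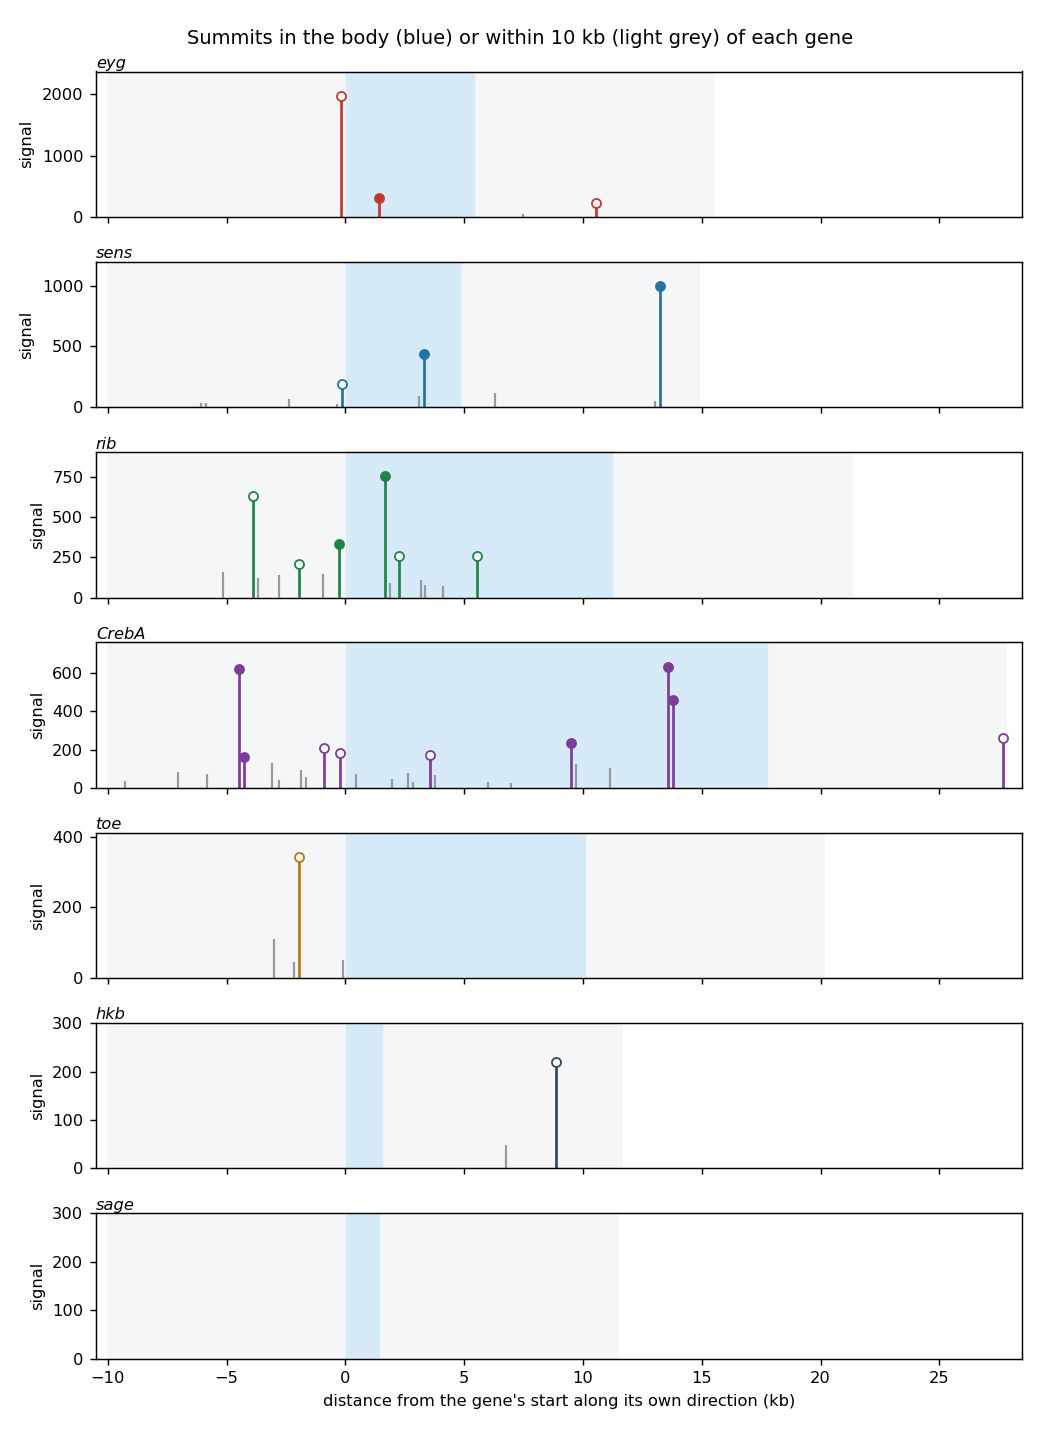
Signal of each summit (vertical axis, the authors' score, linear) against its distance in kb from the gene's start along the gene's own direction, for the 7 genes. Coloured stems are optimal summits, filled circles where a forkhead word lies within 50 bp and open circles where none does, grey stems are weaker regions of the pooled list, blue marks the gene body and light grey the 10 kb on each side. eyg has 1 tall summit of 1974.8 just before its start, CrebA, rib, eyg and sens have summits on both sides of their starts, and sage has none.

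The sequences within 50 bp of 7 summits are shown as examples from 4 of the genes, with signals from 234.8 to 1974.8. They are the strongest of all, which lacks the forkhead word, the single summit of toe, and 5 in introns that all hold the word. The intron summits of CrebA at 170.9 and of rib at 257.8 hold none and are not shown. The intron summit of rib at 755.1 holds 2 matches and is not shown either. The summit of rib at 256.6 lies in an intron too but is counted as a promoter summit, and it holds none. The word is T, then A or G, then TTT, then A or G, then C or T, read on either strand, and its matches are in capitals. All are from the release 6 reference assembly (dm6). Those for the strongest summit of eyg and the summit before toe have no match. The first holds 3 matches to GAGAG, the word of the GAGA factor, on either strand, 2 of which overlap.

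eyg, chr3L:12468151-12468251, plus strand: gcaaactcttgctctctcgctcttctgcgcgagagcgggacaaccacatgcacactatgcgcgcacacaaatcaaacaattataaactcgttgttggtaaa

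toe, chr3L:12434589-12434689, plus strand: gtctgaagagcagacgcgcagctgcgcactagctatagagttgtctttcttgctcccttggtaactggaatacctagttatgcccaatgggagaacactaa

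The summits in the introns of CrebA, sens and eyg hold 1, 2, 4, 1 and 2 matches, in the order shown. In the third of them the last 2 matches overlap by a base.

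CrebA, chr3L:15548930-15549030, plus strand: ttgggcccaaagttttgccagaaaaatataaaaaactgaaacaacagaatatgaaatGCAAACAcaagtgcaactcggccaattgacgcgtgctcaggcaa

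CrebA, chr3L:15549133-15549233, plus strand: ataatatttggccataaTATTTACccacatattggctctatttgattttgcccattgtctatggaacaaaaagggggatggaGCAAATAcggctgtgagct

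CrebA, chr3L:15544844-15544944, plus strand: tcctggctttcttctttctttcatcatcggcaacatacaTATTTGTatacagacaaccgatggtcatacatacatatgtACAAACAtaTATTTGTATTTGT

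sens, chr3L:13397770-13397870, plus strand: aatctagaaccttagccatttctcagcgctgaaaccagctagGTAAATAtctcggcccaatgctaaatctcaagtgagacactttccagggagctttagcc

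eyg, chr3L:12466546-12466646, plus strand: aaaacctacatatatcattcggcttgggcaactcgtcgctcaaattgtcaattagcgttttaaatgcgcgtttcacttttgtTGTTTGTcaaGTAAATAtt

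The forkhead word was found within 50 bp of 10 of the 23 summits (43.5%, exact 95% binomial interval 23.2% to 65.5%, counting error only), and of 58.5% of all optimal summits, which lies inside that interval. At 6 of the 23 there were 2 or more matches, against 23.5% of all summits, and 19 matches were found in all. By position, 6 of 8 summits in introns had the word, as did 4 of 10 at promoters (within 500 bp of a transcription start site, TSS) and 0 of 5 between genes. The pair that shares an interval in CrebA makes up 2 of these 6. The shares by position were not computed over the whole list, so these counts cannot be set against a background. The median signal was 447.5 for the 10 summits with the word and 228.9 for the 13 without, and over the whole list these medians were 318.7 and 268.3. The strongest of the 13 without were the first summit of eyg (1974.8) and the far upstream summit of rib (634.9). Within 100 bp the summit of eyg had 1 match, and the summit before toe still had none. A narrower form, TGTTTA followed by C or T, occurred at 3 of the 23 (13.0%, 2.78% to 33.6%) and at 20.6% of all.

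Other words were searched in the same windows. The E-box CANNTG, the kind of word bound by basic helix-loop-helix proteins such as Sage, lay at 13 of 23 summits (56.5%, 34.5% to 76.8%) and at 43.3% of all. CrebA had it at 6 of its 9 summits, rib at 3 of 6, sens at 2 of 3, and eyg and toe at 1 each. The core TGACGT, the kind of word bound by CREB proteins, lay at 1 summit, 885 bp upstream of CrebA itself, and at 2.89% of all summits. The GAGA word was found at 3 of 23 (13.0%) and at 16.9% of all, and its 3 summits were those at the starts of eyg and sens and the one at an inner start of rib. GC content within 50 bp had a median of 39.6% at the 23 summits and 41.6% over the list. These matches describe the letters only, and a window without a match says nothing of the factor.

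**Figure D2:**
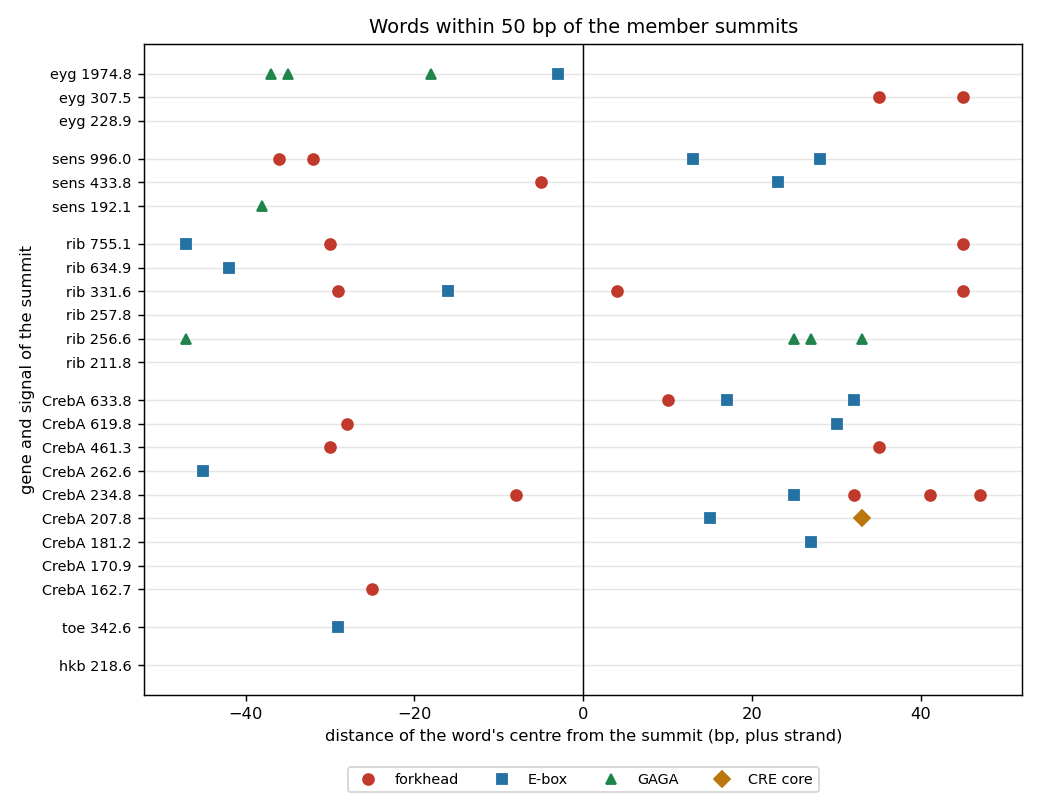
Positions of 4 words (symbols) within 50 bp of each of the 23 summits, as the distance in bp of the word's centre from the summit along the plus strand; each line is labelled with the gene and the summit's signal. The summit of eyg at 1974.8 has 3 GAGA words and an E-box and no forkhead word, while the summit of CrebA at 234.8 has 4 forkhead words.

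sage, the partner of fkh in the gland, had no summit in the optimal list and none in the pooled list of 30000. The gene (FBgn0037672) spans 9262654 to 9264142 on the minus strand of 3R (dm6), and 8 other protein-coding genes reach into its window of 21.5 kb. Of all protein-coding genes, 30.5% had no optimal summit in this window, and 78.2% had a pooled-list summit, as did 6 of the 7 genes here. The nearest optimal summit was 15475 bp away, in an intron of CG8420, with a signal of 244.7. The replicates were less uniform than the joint lists. Replicate 1 alone had a region whose summit, at 9264272, lay 130 bp upstream of sage between genes, at rank 8185 of its 30000. Replicate 2 had no region in the window, and replicate 3 had 6, of which the strongest, at rank 4156, lay 1 bp from the TSS of the neighbour ATP6AP2. At the start of sage itself a region was thus listed in 1 of 3 replicates.

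CrebA had the most summits of the 7 genes. It (FBgn0004396) lies at 15535395 to 15553214 on the plus strand of 3L, and 96.1% of protein-coding genes had fewer summits in their windows. By summits per 10 kb of window, which allows for its length, CrebA had 2.38 and 88.4% of genes had fewer. The strongest pair shared 1 interval in intron 2 of 5, at 15548980 with a signal of 633.8 and at 15549183 with 461.3. The interval ranked 955 in replicate 1, 2460 in replicate 2 and 1178 in replicate 3, a mean of 1531 ± 812 (SD, n = 3). The regions whose own summits were nearest to the weaker of the pair ranked 3918, 3685 and 3177. Both summits have the forkhead word and belong to the sequences shown above.

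A further strong summit of CrebA lay 4475 bp upstream of the gene, at 15530920, with a signal of 619.8 and ranks of 1151, 2847 and 1220. It is 50 bp from a TSS of the neighbouring gene CG43248, in that gene's 5' UTR, and a weaker summit of 162.7 in the same interval lay in an intron of CG43248. The nearest own summits to this weaker one ranked 6336, 21847 and 9585. At the start of CrebA, the summit 221 bp upstream was weak, with a signal of 181.2 and ranks of 7824, 7055 and 9257, and the one 885 bp upstream, of 207.8, ranked 6833, 8592 and 13425. Neither holds a forkhead word. In 1 replicate each was overlapped by a stronger region with its own summit elsewhere, and by the region with the nearest own summit the first ranked 22389 in replicate 3 and the second 25850 in replicate 2. In intron 1, a summit 9499 bp from the start had a signal of 234.8, ranks of 6011, 7147 and 8968 and 4 forkhead words, and one 3557 bp from the start had 170.9 and ranks of 8168, 22122 and 7496. The last, downstream of the gene, had 262.6 and ranks of 7446, 5621 and 4775, and lay 16 bp from the TSS of CG7739. The 3 highest signals of CrebA were thus the pair in intron 2 and the stronger summit at CG43248, and both summits near its TSS were below the list's median of 294.1.

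hkb had 1 optimal summit in its window, and not at its own start. The gene (FBgn0261434) spans 4345015 to 4346646 on the minus strand of 3R. The summit, at 4337774, lay 7241 bp from the gene body in the 5' UTR of CG1103, 19 bp from a TSS of that gene, and CG1103 was its nearest gene. Its signal was 218.6, and it ranked 6220 in replicate 1, 8883 in replicate 2 and 8776 in replicate 3, all in the lower part of the 9531 strongest regions. Of all genes, 35.0% had a weaker strongest signal, a share that includes the 30.5% with no optimal summit. Over the genes with a summit the median strongest signal was 564.4, against 218.6 for hkb. A stronger summit of 1231.2 lay just outside the window, 10892 bp from hkb and 52 bp from a TSS of CG9776. The only weaker pooled region in the window had a signal of 48.4, 5118 bp from the gene.

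rib had 6 summits, and for all of them rib was the nearest gene. It (FBgn0003254) lies at 19270078 to 19281396 on the plus strand of 2R, and 85.4% of genes had fewer summits. The strongest, at 19271760 in the intron of its longest transcript and 1682 bp from the gene's start, had a signal of 755.1. It ranked 574 in replicate 1, 882 in replicate 2 and 2650 in replicate 3, a mean of 1369 ± 1120 (SD, n = 3), so replicate 3 placed it lower than the other two. A weaker summit of 257.8 shares its interval of 1451 bp. The replicate 3 region at rank 2650 has its own summit nearest to this weaker one, and the region nearest to the strongest summit ranked 4036 there, which gives a mean rank of 1830. In replicates 1 and 2 the regions nearest to the weaker summit ranked 8241 and 7991. Upstream, the summit 3884 bp from the start had 634.9 with ranks of 891, 3079 and 1610, the one 1939 bp away had 211.8 with 6040, 10383 and 9586, and the one 247 bp away had 331.6 with 3438, 5273 and 4567. The last holds 3 forkhead words, 1 of them centred 4 bp from the summit. A summit of 256.6 lay in the intron, 124 bp from an inner TSS of rib, and was matched by a region in replicates 1 and 3 (ranks 6171 and 4605) and by none in replicate 2. The next optimal summit beyond the window, at 12146 bp from rib in an intron of Tab2, was stronger than all of these, with 1687.2.

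eyg had the strongest summit of the 7 genes. The gene (FBgn0000625) spans 12462537 to 12468021 on the minus strand of 3L, and the summit at 12468201 lay 180 bp upstream of its start. Its signal of 1974.8 was rank 34 in the optimal list, and 99.1% of protein-coding genes had a weaker strongest signal in their windows. It ranked 58 in replicate 1, 23 in replicate 2 and 28 in replicate 3, a mean of 36.3 ± 18.9 (SD, n = 3). The 3 replicates placed its summit within 28 bp of the joint one. The other summits of eyg were far weaker. One in intron 1 of 4, 1425 bp from the start, had 307.5 with ranks of 5340, 3675 and 7355 and 2 forkhead words, and one 5053 bp beyond the gene's end had 228.9 with ranks of 7844, 5450 and 8970.

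toe, the other Pax gene, lies 29.9 kb from eyg on the same strand and had 1 summit. The gene (FBgn0036285) spans 12422510 to 12432668 on 3L. The summit, at 12434639, lay 1971 bp upstream of its start between genes, with a signal of 342.6, and ranked 6120, 2583 and 4538 in replicates 1, 2 and 3 (mean 4414 ± 1772, SD, n = 3). It and the downstream summit of eyg are the 2 optimal summits in the stretch between the genes. Of all genes, 46.6% had a weaker strongest signal than toe, a share that includes the 30.5% with no optimal summit. Over the genes with a summit the median strongest signal was 564.4, against 342.6 for toe. No optimal summit lay within 1000 bp of the TSS of toe. The replicate ranks of the strongest summits of eyg (23 to 58) and toe (2583 to 6120) did not overlap.

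sens had its strongest summit at the start of another gene. The gene (FBgn0002573) spans 13396228 to 13401125 on the minus strand of 3L. The summit at 13387862, with a signal of 996.0 and ranks of 984, 207 and 585 (mean 592 ± 389, SD, n = 3), lay 8366 bp beyond the end of sens, in the 5' UTR of CG10171 and 29 bp from a TSS of that gene. Within sens, a summit in intron 2 of 3 at 13397820 had 433.8 and ranks of 3295, 2119 and 4008. It holds a forkhead word centred 5 bp from the summit, shown above. The summit 132 bp upstream of sens was weak, with 192.1 and ranks of 6947, 15068 and 8671, and holds no forkhead word. Beyond the window, the next optimal summit was 39968 bp away.

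By the strongest summit in the window the order was eyg (1974.8), sens (996.0), rib (755.1), CrebA (633.8), toe (342.6) and hkb (218.6). The replicate ranks of sens (207 to 984) overlapped those of rib (574 to 2650), and those of rib overlapped those of CrebA (955 to 2460). Those of sens and CrebA overlapped as well. The order of these genes also changed between replicates. In replicate 1 rib (574) and CrebA (955) came before sens (984), and in replicate 3 CrebA (1178) came before rib (2650). Each pair kept its order in the other 2 replicates. eyg before sens, CrebA before toe (2583 to 6120) and toe before hkb (6220 to 8883) did not overlap. With 3 replicates an exact permutation test of 2 unpaired sets of ranks cannot give a p under 0.1, so none was made. The pairing of ranks by replicate was not used in a test either. When only summits nearest to the gene itself were kept, 18 of the 23 were left. sens then fell behind CrebA with 433.8 and hkb had none. The ranks of this sens summit, 3295, 2119 and 4008, overlapped the ranges of both CrebA and toe. The other 5 lay at the promoters of CG43248 (2 summits), CG7739, CG1103 and CG10171. A summit within 1000 bp of an own TSS was present at 4 of the 7 genes, CrebA, eyg, rib and sens, against 31.2% of all genes, and a summit in the gene body at 4, the same 4, against 19.9%. A longer body has more room for a summit, and the median windows were 25.5 kb for the 7 genes and 22.2 kb for all. These windows include 10 kb on each side of every gene, so the bodies alone differ more in proportion than the windows do. These shares were not adjusted for length.

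**Figure D3:**
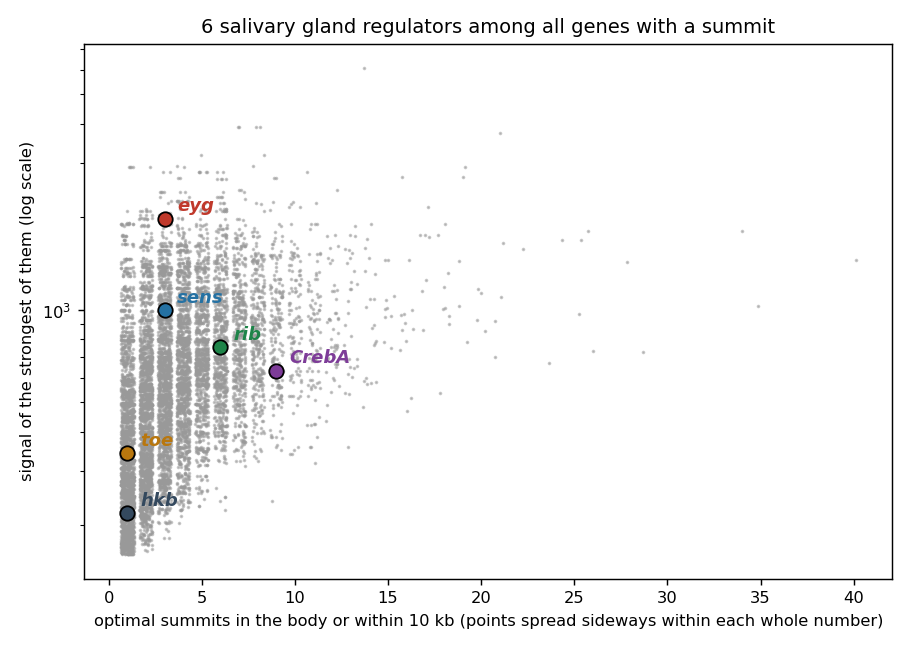
Signal of the strongest optimal summit (vertical axis, the authors' score, log scale) against the number of optimal summits in the gene body or within 10 kb, for every protein-coding gene with at least 1 (grey points) and for 6 of the regulators (coloured). eyg stands near the top at 3 summits, CrebA far to the right at 9 with a signal of 633.8, and toe and hkb at the lower left with 1 each.

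The replicates listed most of these summits. Of the 23, 18 (78.3%, exact 95% interval 56.3% to 92.5%) overlapped 1 of the 9531 strongest regions in all 3 replicates, against 72.9% of all optimal peaks. All 11 summits with a signal over 300 were among them. The 5 that were not had signals of 170.9 to 256.6 and lay at CrebA (2), rib (2) and sens (1). By replicate, 23 of the 23 were among the 9531 strongest regions of replicate 1, 19 in replicate 2 and 21 in replicate 3, where all optimal peaks gave 91.0%, 87.8% and 85.2%. These replicates also went into the optimal list, so this agreement is in part built in. The count uses the best region that overlaps the interval. For the summits of CrebA at 162.7 and 181.2 the region with the nearest own summit lay past rank 9531 in at least 1 replicate. For summits with a replicate region, the farthest replicate summit was a median of 37 bp and at most 99 bp from the joint one.

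**Figure D4:**
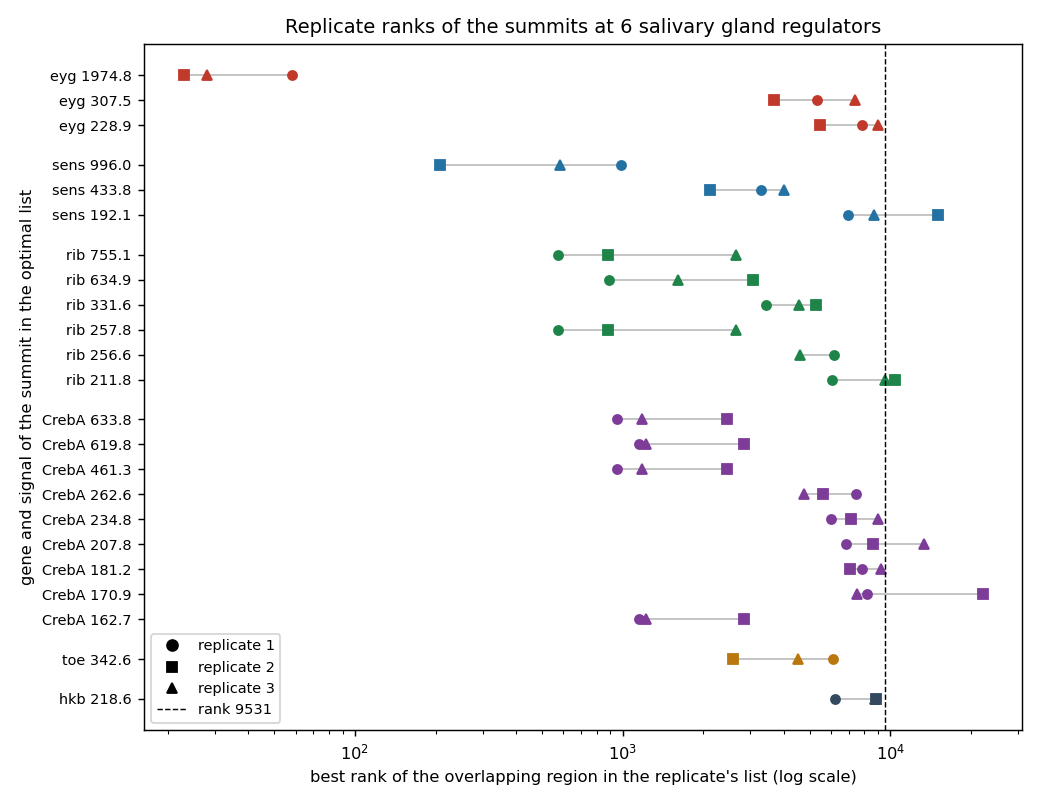
Best rank of the overlapping region in the lists of replicates 1, 2 and 3 (symbols, log scale, 1 is the strongest) for the 23 summits, labelled with the gene and the signal; the dashed line is rank 9531. The weaker summit of a shared interval (CrebA 461.3 and 162.7, rib 257.8) is drawn at the interval's rank. The top summit of eyg is at 23 to 58 in every replicate, and some but not all of the weak summits lie near or beyond the line.

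Other genes of the pathway came from 5 lists of 27 genes in all, of which 24 had an optimal summit in the body or within 10 kb, against 69.5% of all genes. Of 6 regulators upstream or at the top of the gland programme, 5 had one, led by fkh itself (6080.8, 14 summits) and the homeodomain cofactor gene hth (1146.9, 17 summits), and the Hox gene Scr, which specifies the gland, had 476.6. Of 4 genes of the salivary duct, 3 had one, with trh, a regulator of tubular organs, at 313.6 and retn at 256.5. All 10 genes of secretory cell products and gland shape had one, with klar, which acts in nuclear movement and vesicle transport, at 1175.7 and the ER retention receptor gene KdelR at 1088.6. Of 4 death activators 3 had one, with rpr at 1000.8 and hid at 590.1. The 3 partner or related regulators all did, with the coactivator gene tai at 790.5 and Xbp1, a factor of the unfolded protein response, at 701.4. The genes without any were exd, btl and grim. Long genes have wider windows, so these counts depend on length.

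The window of 10 kb decided some of these counts. Just inside it lay the summit 9867 bp from CrebA (262.6), that 8366 bp from sens (996.0) and that 7241 bp from hkb (218.6). Just outside lay summits 10892 bp from hkb (1231.2), 11277 bp from CrebA (165.2), 12146 bp from rib (1687.2), 13024 bp from toe (397.9) and 14457 bp from eyg (955.5). The last is 131 bp from the TSS of CG33725.

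The genes most like CrebA in number, summed signal and strongest signal of summits, by percentile rank over the 13945 genes, were kermit, comm2 and dally. Each also had 9 summits, with strongest signals of 633.5, 647.3 and 647.6, against 633.8 for CrebA. The distance in percentile points over the 3 measures was 0.115 for kermit, 0.958 for comm2 and 1.69 for dally.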

How the data were processed

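ChIP-seq peak lists for 3 biological replicates of 1 group were used as the authors deposited them, on the dm6 build, with replicate numbers from the labels. The lists came from regions called in each replicate and in the 3 together against a common control, followed by an irreproducible discovery rate (IDR) step that gave the optimal list, per the deposited file lists. The aligner and peak caller were not given in the sources used here, nor was the control's origin. The deposited signal is a score of unstated scale, scaled in each list, so replicates were compared by rank. The −log10 of the q-value that the authors deposited is at its ceiling of 4.289 in the whole optimal list and was not used further. Fragments were 200 to 800 bp, per the labels.

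Summits were matched, with Python 3.11.15, pandas 2.3.3 and NumPy 2.4.6 (intervals with SciPy 1.17.1, figures with Matplotlib 3.10.9), to Ensembl release 115 genes, and sequences were read from RefSeq's release 6 assembly, and the pooled list's coordinates lie inside its chromosomes. Overlap meant at least 1 bp, and the rank is the best among the overlapping regions. Promoters were within 500 bp of a TSS, and words were searched within 50 bp on both strands. Percentages of genes are over all protein-coding genes on 6 chromosome arms, and genes without an optimal summit are included. The dm3 lists were not used. The members, lists, words and alternatives were chosen with earlier results of these data known, and the named genes are the 7 members and the 2 strongest genes of each list, beside neighbours whose TSS was nearest. Scr and the genes of each list without a summit were named after their values were seen. The labels' replicates are taken as separate samples, and the functions were tested on simulated data.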

Additional observations from a re-analysis of the deposited data

How the results depend on the processing

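The count of 6 of 7 genes with a summit was 5 within 5 kb, with the nearest gene per summit and in the stronger 4766 peaks, 7 within 20 kb and 6 in every other setting. The 23 summits became 36 within 20 kb, 11 in the stronger 4766 peaks, 59 in the pooled list, and 18 to 21 without 1 replicate. For this last count no list was remade. It kept those of the 23 summits that were among the 9531 strongest regions of both other replicates, so it could only stay or fall. The share with the forkhead word, 43.5%, was 17.4% within 25 bp, 69.6% within 100 bp and 13.0% for the narrower word, where all optimal summits gave 36.8%, 77.0% and 20.6%. Without 1 replicate it was 47.6% to 55.6%, because the summits that were dropped all lack the word. The share over all optimal summits was not computed for that setting, so this rise has no background. The share among the strongest regions of the replicates, 78.3%, was 95.7% with all 30000 regions and 21.7% with 50% of both regions shared (98.2% and 36.7% over all peaks). Without 1 replicate it was 78.3% to 91.3%. This last change could only keep or raise the share, because the same 23 summits then needed fewer lists to agree. Among values for single genes, 15 were classed as moved and 49 as the same, by a tolerance not given here. A count classed as the same could still change, as with CrebA, which fell from 9 to 6 by nearest gene. The gene hkb had 0 summits within 5 kb, by nearest gene and in the stronger 4766 peaks. The rank of the region with the nearest own summit, added once the data had been seen, gave rib's strongest summit 1830 in place of 1369. This change was also classed as the same. No pairing between groups was possible because the series holds 1 group. Ranks of different genes are paired by replicate, and no paired test of them was made. The depth is unknown, so a gene without a summit, such as sage, is only one with none listed.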

Other observations

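Regions of the pooled list outside the optimal list added 36 weaker summits to the windows of the 7 genes. CrebA had 16 of them, with signals of 27.7 to 128.8, and rib 8, with 69.1 to 156.5. The strongest at rib, at 19264919, had rank 9741 in the pooled list, just past the 9531 peaks kept. sens had 7, with signals of 28.1 to 119.3, toe 3, with 47.0 to 111.9, and eyg and hkb 1 each, with 40.8 and 48.4. Around toe, the nearest pooled summit to the gene was 110 bp upstream of its start with a signal of 50.9, well below the optimal summit of 342.6 further upstream. sage had none.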
